A study of Mus musculus with 12 samples.

Results

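Cassette exons are exons that a transcript either holds or skips as a unit. The exons described here have a length that is not divisible by 3, so that including or skipping one moves the reading frame of whatever coding sequence follows. All 160 cassette exon events that the splicing tables list in neural progenitor cells (NPC) or mouse embryonic fibroblasts (MEF) were sorted by exon length. Leaving out the events of Prmt5, Mdm2, Mdm4, Luc7l, Setd8, Terf1 and Tmpo, 79 frame-shifting events in 72 genes remained. NPC listed 72 of them in 66 genes, of 135 cassette exon events, and MEF listed 9 in 8 genes, of 32. The choice used length and name, not the direction or size of a change, but every event was in the tables because the authors had listed it as changed.

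All cells, controls included, carried a Prmt5 allele that 4-hydroxytamoxifen (4-OHT) deletes (genotype Prmt5 F/FER, strain mixed C57BL/6 X 129S1/SvlmJ); the labels do not describe the recombinase or its promoter. NPC were grown as neurospheres from E14.5 cortex with epidermal and fibroblast growth factors, and MEF came from E14.5 embryos and were confluent at passage 1. Each cell type received 50 nM 4-OHT or ethanol for 24 h, at day 4 of culture for NPC. There were 3 libraries in each of the 4 groups. The labels name no library treated with 4-OHT that lacks the conditional allele, so loss of Prmt5 and exposure to 4-OHT cannot be told apart. The labels do not say whether the 3 libraries of a group are separate cultures, so that the spread between them may be technical.

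PRMT5 is the methyltransferase that places symmetric dimethylarginine on Sm proteins, the ring that forms the core of spliceosomal small nuclear ribonucleoproteins. When a frame-shifting exon in a coding region is skipped, ribosomes read the next exon in another frame and usually meet a stop codon early. A so-called poison exon works the other way round: its inclusion brings the early stop. A stop codon well upstream of the last exon junction marks a transcript for nonsense-mediated decay, the cytoplasmic pathway in which UPF proteins act with the exon junction complex.

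The deposited gene table listed Prmt5 itself at 33.4 RPKM with ethanol and 4.92 RPKM with 4-OHT in NPC, and at 20.96 and 3.76 RPKM in MEF, so that both cell types carried the reduction the labels state. The tables give no total depth of the libraries. Reads counted per event and library are therefore the only depth stated, and intervals and limits below cover counting error only. Gene tables list changed genes alone, so a cell type marker that is not listed cannot be placed. Of the markers drawn up for other cell types, the authors' deposited table for NPC listed 6 of 7 astrocyte and oligodendrocyte markers, all higher with 4-OHT, from Sox10 (2.22 to 3.68 RPKM) to Mag (0.180 to 0.919 RPKM). It also listed 2 of 6 neuron markers, in opposite directions, and 1 of 8 progenitor markers, Hes5, at 15.8 and 4.77 RPKM. Of 7 endothelial, blood and immune markers the authors' deposited table listed Flt1, Tek and Cd14, all higher but at low levels. In that table Flt1 was at 0.0658 and 0.118 RPKM, Tek at 0.0804 and 0.14, and Cd14 at 0.569 and 1.12. Adjusted for all annotated gene names, their Cuffdiff p was at most 0.626, 0.959 and 0.0631. None of these bounds was under 0.05. The NPC table listed 4.36% of all annotated gene names, expressed or not, and 1367 of its 2416 rows were higher. No fibroblast or smooth muscle marker was listed in NPC. In MEF the only marker listed by the authors' deposited table was Myh11, of smooth muscle, at 8.25 and 17.2 RPKM. The part of such shifts in the exon changes was not tested, and in bulk RNA fewer cells of a type and less RNA per cell cannot be told apart.

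The exons below are shown because their skipping brought an early stop in a GENCODE reference transcript, and because their skipped forms had a larger share with 4-OHT. Each is printed 5′ to 3′ on the sense strand in lower case, from GENCODE M21 transcripts (GRCm38).
Mpdu1, 86 bases, chr11:69657936-69658021, minus strand: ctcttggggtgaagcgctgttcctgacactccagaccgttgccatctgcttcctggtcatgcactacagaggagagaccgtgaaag
Csad, 65 bases, chr15:102179829-102179893, minus strand: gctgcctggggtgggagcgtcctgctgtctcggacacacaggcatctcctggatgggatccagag
Syce2, 154 bases, chr8:84883431-84883584, plus strand: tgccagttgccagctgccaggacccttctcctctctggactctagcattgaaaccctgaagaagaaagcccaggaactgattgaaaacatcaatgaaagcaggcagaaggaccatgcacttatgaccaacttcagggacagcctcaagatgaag
Tbc1d24, 64 bases, chr17:24182786-24182849, minus strand: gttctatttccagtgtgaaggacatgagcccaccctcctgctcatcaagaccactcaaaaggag
The joined sequence of the skipped form shows how soon the stop follows. The first 12 bases of each run below are the end of the exon before the junction, and the capitals mark the first stop codon in the shifted frame.
Csad skipped: ttccatgtggatggcTGA
Trit1 skipped: ttcagaaaataggtatTGA
Mettl17 skipped: agcttctgaaaggtccagttTGA
Syce2 skipped: agtggccccgaggtctcagatcTGA
In Csad the stop was reached 1 codon after the junction, in Trit1 2, in Mettl17 3 and in Syce2 4 codons after it. The Mpdu1 frame ran on for 46 codons and that of Tbc1d24 for 50.
Poison exons show the same in the included form, with the first 12 bases again from the exon before the junction and the stop in capitals.
1110034B05Rik (Tyw5 in GENCODE) included: gacccaaggaagTAG
Ap4e1 included: tcatccaagcacactTAA
Tmem44 included: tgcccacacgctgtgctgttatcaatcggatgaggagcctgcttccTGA
Tyw5 met the stop codon with the first bases of the exon (chr1:57393585-57393694 for the 110-base form, minus strand), Ap4e1 after 1 codon (chr2:127009671-127009875, plus strand) and Tmem44 after 12 codons (chr16:30549393-30549457, minus strand). Tmem44 was also listed in NPC for a retained intron, at 0.22, 0.189 and 0.162 with ethanol and 0.519, 0.558 and 0.533 with 4-OHT.

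In NPC, 44 of the 72 exons were included less with 4-OHT and 28 were included more. The inclusion level is the authors' length-corrected fraction of reads that hold the exon, from 0 to 1. Inclusion reads weigh less in it the longer the exon is, so they are not taken as junction reads alone. A limit given for a count of 0 is a percent of reads, and the share of skipping on the level scale may be higher. Among all listed cassette exon events of NPC, 62.2% were lower and 37.8% were higher, and 61.1% of the frame-shifting exons were lower, which is near that background. The median change, 4-OHT minus ethanol, was -0.274 for frame-shifting exons and -0.256 for all listed cassette exons. The median size of a change without its sign was 0.374, against 0.312 for the 55 frame-keeping exons listed in NPC, a difference that was not tested. Frame-shifting exons also had fewer reads, with a median of 30 in the shallowest library against 56 for frame-keeping exons. The ranges of levels of the arms did not overlap for 72 of 72 exons, as for 100.0% of all listed events, so that nothing is read from it. An event was listed only with an authors' p under 0.05 in each listed pair and 1 direction over its pairs, which is the test behind each single change below.

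Exons with lower inclusion started mostly from high levels, as did all listed cassette exons. Their median level was 0.821 with ethanol and 0.368 with 4-OHT, and 40 of the 44 had a mean ethanol level of at least 0.5. The exons that gained inclusion were mostly skipped before, with medians of 0.332 and 0.827, and 3 of 28 had an ethanol level of at least 0.5. Among all listed cassette exons of NPC the same held for 74 of 84 losses and 9 of 51 gains, with ethanol medians of 0.847 and 0.312. The listing of changes of at least 0.2 on a scale from 0 to 1 fixes this in part. In 40 of the 44 losses the summed inclusion reads were lower and the summed exclusion reads higher with 4-OHT, and in 25 of the 28 gains both moved the other way. The plot of all NPC exons shows this split.

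**Figure D1:**
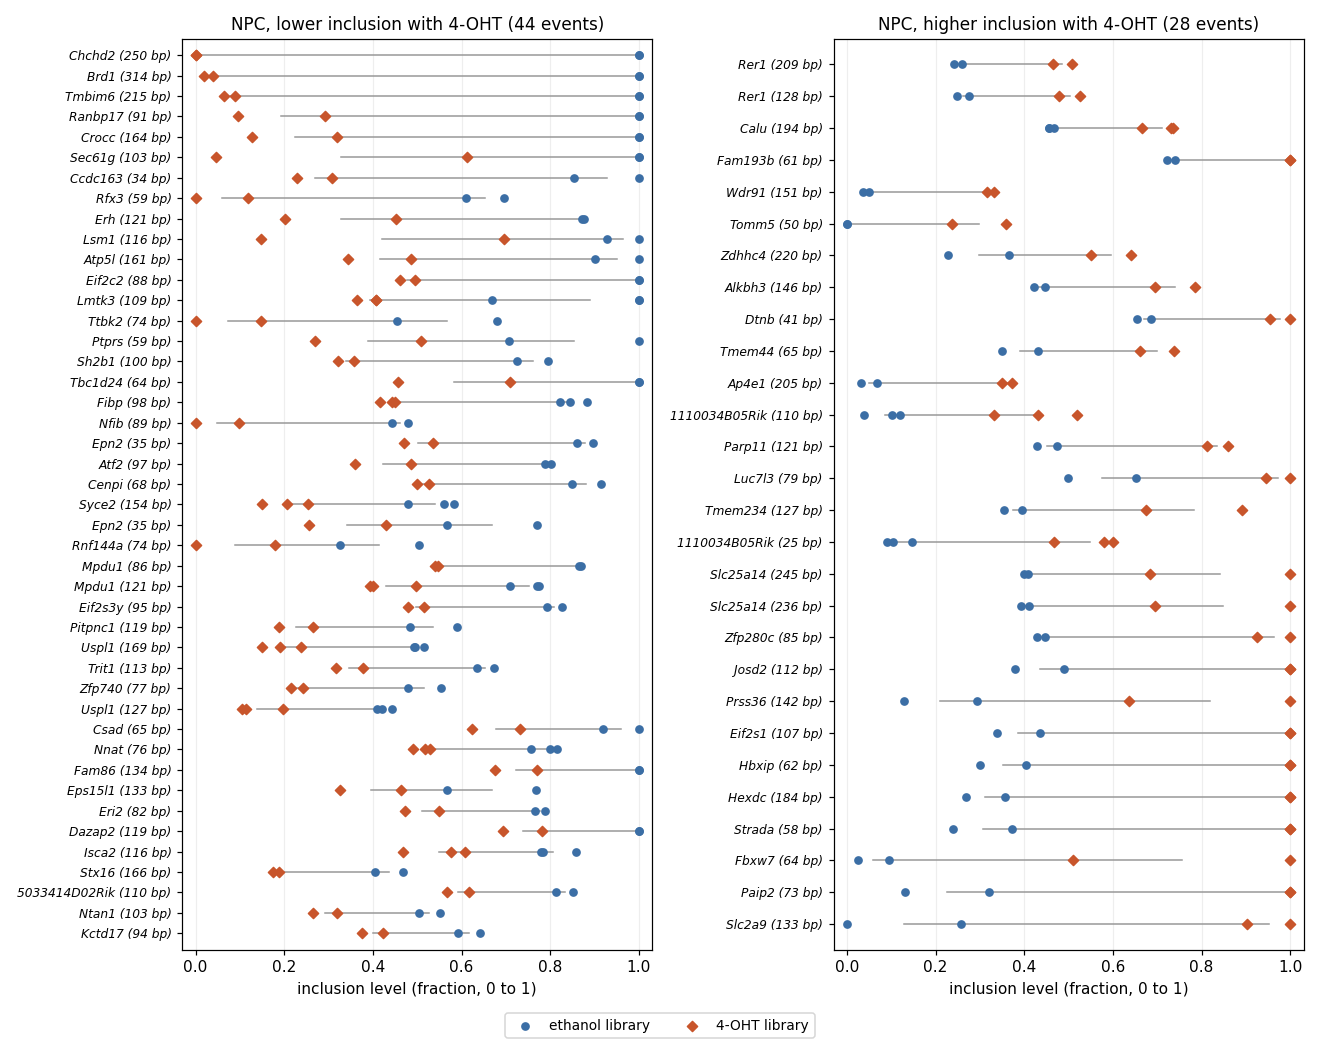
Inclusion level (x axis, fraction from 0 to 1) of each frame-shifting cassette exon event listed in NPC (y axis, gene symbol and exon length), with the 44 events lower with 4-OHT on the left and the 28 higher on the right, sorted by the size of the change. Each circle is an ethanol library, each diamond a 4-OHT library and each line joins the arm means; no row has arms that overlap, and losses start mostly above 0.5 while gains start mostly below it.

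Genes of the DNA repair, replication and cell cycle group held 3 of the exons, with 2 lower and 1 higher. Syce2, a central element protein of the synaptonemal complex, lost a 154-base exon (mm9 chr8:87407330-87407483). Its inclusion level was 0.582, 0.561 and 0.479 with ethanol and 0.254, 0.207 and 0.149 with 4-OHT. All 3 treated libraries lay below every control, a change of -0.337 ± 0.014 (SD, n = 3 pairs). The exact permutation test over the 6 libraries gave p = 0.1 (two-sided), the smallest value that 3 against 3 allows, and 0.1 after Benjamini-Hochberg adjustment. The arms lay apart for 100.0% of the listed NPC events, which the listing fixes in part. Every exon below in 3 pairs has the same p by this test, and nothing is read from it. Cenpi, a kinetochore protein, went from 0.914 and 0.848 to 0.5 and 0.526 for an exon of the 5′ untranslated region. Alkbh3, a demethylase that repairs alkylated bases, went the other way, from 0.447 and 0.422 to 0.785 and 0.695.

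RNA processing and translation genes held 12 NPC exons, 7 lower and 5 higher. Eif2c2, the symbol in the table for Ago2, is the slicer Argonaute of microRNA silencing. It had no exclusion read among 96 reads with ethanol, which allows up to 3.12% of reads. With 4-OHT its inclusion level was 0.495 and 0.46. Trit1, which modifies an adenosine beside the anticodon of some tRNAs, went from 0.672 and 0.634 to 0.378 and 0.316 for a 113-base exon. Both translation initiation factor 2 genes of the set concerned coding exons whose skipping brings an early stop, yet they lay in opposite directions. Eif2s3y, the Y-linked gamma subunit, went from 0.793 and 0.826 to 0.516 and 0.478. Eif2s1, the alpha subunit whose phosphorylation slows initiation, went from 0.338 and 0.435 to 1.0 in both 4-OHT libraries, with 17 reads in its shallowest library.
Erh, a cofactor of the Microprocessor complex, was at 0.872 and 0.876 with ethanol and at 0.453 and 0.201 with 4-OHT. Lsm1, part of the cytoplasmic ring that promotes decapping, was at 0.927 and 1.0 and then at 0.148 and 0.695, so that its 2 treated libraries differed widely. Eri2, of a family of exoribonucleases, went from 0.766 and 0.789 to 0.472 and 0.548. Fam86 (Eef2kmt in GENCODE), a methyltransferase of elongation factor 2, went from 1.0 in both to 0.77 and 0.675. All 4 of these exons are coding.
Tyw5, a hydroxylase of tRNA wybutosine, gained both listed forms of its poison exon, of 25 and 110 bases, which share an edge and their exclusion reads. The 25-base form lies in a coding reference transcript and in no decay-annotated one. Its early stop was called by inserting it into another transcript. The 110-base form was at 0.12, 0.102 and 0.039 with ethanol and at 0.333, 0.432 and 0.518 with 4-OHT, a change of 0.341 ± 0.133 (SD, n = 3 pairs; exact permutation p = 0.1). The 25-base form changed by 0.436 ± 0.073. Luc7l3, a protein associated with U1 snRNP, was at 0.499 and 0.652 and then at 1.0 and 0.945 for a 79-base exon matched only in decay-annotated transcripts. Paip2, a repressor of poly(A)-binding protein, was at 0.132 and 0.321 with ethanol and 1.0 in both 4-OHT libraries, on as few as 7 reads.

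Chromatin and transcription genes held 6 exons in NPC, 5 lower and 1 higher. Atf2, a leucine zipper transcription factor, went from 0.801 and 0.787 to 0.359 and 0.486 for a 97-base coding exon. It was the exon for which both the included and the skipped form met an early stop in some reference transcript. Nfib and Rfx3, transcription factors of neural development and ciliogenesis, each had a 4-OHT library with no inclusion read, of 9 and 11 reads. Brd1, a bromodomain protein of histone acetyltransferase complexes, changed by -0.971 ± 0.014 (SD, n = 2 pairs) on 5 reads in its shallowest library. Only its skipping junction was found in the reference, so that its 314-base exon was not placed.

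The group of membrane, transport, cytoskeleton and metabolism genes was the most numerous in NPC, with 18 events lower and 14 higher. Mpdu1, which makes dolichol-linked mannose available for glycosylation, had 2 listed events that share an edge and reads. The 86-base event went from 0.87 and 0.864 to 0.54 and 0.547, a change of -0.323 ± 0.009 (SD, n = 2 pairs). In the 2 pairs listed for this event the replicates were nearly equal, on 324 reads or more per library. The 121-base event was also listed for another pair and changed by -0.321 ± 0.095 (SD, n = 3 pairs). Its change was -0.212 in that pair, against -0.381 and -0.371. Csad, the decarboxylase of taurine synthesis, went from 0.918 and 1.0 to 0.623 and 0.731 for a 65-base coding exon. Stx16, a SNARE of the trans-Golgi network, went from 0.404 and 0.468 to 0.175 and 0.188.
Nnat, an imprinted proteolipid of neural tissue, was at 0.799, 0.756 and 0.815 with ethanol and at 0.517, 0.529 and 0.491 with 4-OHT. That change of -0.278 ± 0.049 (SD, n = 3 pairs; exact permutation p = 0.1) came from 5846 reads. The table also lists frame-keeping events of 27 and 81 bases in Nnat, both lower and with the same exclusion reads in their listed pairs. Isca2, of mitochondrial iron-sulfur cluster assembly, changed by -0.256 ± 0.052 (n = 3 pairs; exact permutation p = 0.1).
Calu, an ER calcium-binding protein, had the most reads of any exon, 12671 in all. Its 194-base exon was at 0.457, 0.467 and 0.456 with ethanol and at 0.732, 0.736 and 0.666 with 4-OHT, a change of 0.251 ± 0.036 (SD, n = 3 pairs; exact permutation p = 0.1). The exon that follows in the event is also 194 bases long, and GENCODE annotates the form with both as a decay target. The reads counted for an event do not show whether a transcript held both exons or 1 of them.
In 3 other gains of this group the exon was rarely used with ethanol. Ap4e1, a subunit of the adaptor complex AP-4, went from 0.069 and 0.031 to 0.35 and 0.373. Wdr91, an endosomal protein, went from 0.049 and 0.036 to 0.316 and 0.333. A listed 114-base event of Wdr91 has the same exclusion reads and was also higher. Tomm5, of the mitochondrial import pore, had no inclusion read among 86 ethanol reads, which allows up to 3.49% of reads, and reached 0.237 and 0.359. The largest gain on at least 20 reads in every library was in Slc25a14, a mitochondrial carrier, with 2 overlapping events of 236 and 245 bases that changed by 0.446 ± 0.202 and 0.438 ± 0.218. That rank rests on 1 of its 2 pairs, with changes of 0.589 and 0.592, while the other pair gave 0.303 and 0.284. Next to them were Tyw5, Tmem234 (0.408 ± 0.123) and Luc7l3 (0.397 ± 0.147). A listed 219-base event of Tmem234 shares the exclusion reads of its pairs and was also higher. Rer1, an ER retrieval receptor, also had 2 overlapping events, with changes of 0.236 ± 0.017 and 0.241 ± 0.014.
The largest loss on at least 20 reads was in Tmbim6, the ER protein known as Bax inhibitor 1, for a 215-base exon of the 5′ untranslated region. Its level was 1.0 in both ethanol libraries and 0.09 and 0.064 with 4-OHT. Inclusion reads were 24 and 42 with ethanol and 30 and 40 with 4-OHT, while exclusion reads were 0 and 0 against 46 and 89. The inclusion reads moved little and the skipping reads were added to them. A listed 147-base event of Tmbim6 has the same exclusion reads and went from 1.0 in both to 0.014 and 0.018. The 2 events are therefore not separate evidence of skipping. Sec61g, a subunit of the protein translocon, went from 1.0 in both to 0.612 and 0.046, with treated libraries far apart. Chchd2, a mitochondrial protein, stood at 1.0 and 0.0, but each 4-OHT library held 1 junction read. Its change of -1.0 is thus the least supported in the list. Epn2, an endocytic adaptor, was listed for the same 35-base exon with different flanking exons, at changes of -0.326 ± 0.022 and -0.376 ± 0.022.

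Signalling, kinase and ubiquitin genes held 14 exons, 10 lower and 4 higher. Fibp, which binds fibroblast growth factor 1 inside the cell, was at 0.883, 0.823 and 0.844 with ethanol and at 0.45, 0.416 and 0.444 with 4-OHT. This change of -0.413 ± 0.017 (SD, n = 3 pairs; exact permutation p = 0.1) had at least 149 reads in every library. Sh2b1, an adaptor of receptor tyrosine kinases, went from 0.795 and 0.726 to 0.358 and 0.322. Ptprs, a receptor tyrosine phosphatase, went from 1.0 and 0.706 to 0.509 and 0.269. For Ptprs and for Lmtk3, a membrane kinase, inclusion is the form with the early stop, so that 4-OHT libraries held less of it. Uspl1, a SUMO protease, had 2 overlapping events, with changes of -0.309 ± 0.054 and -0.285 ± 0.065 (n = 3 pairs each; exact permutation p = 0.1).
The 4 gains of this group were Josd2, a deubiquitinase, Hbxip (Lamtor5), a Ragulator subunit, Strada, a pseudokinase partner of LKB1, and Fbxw7, a substrate receptor of a ubiquitin ligase. In the first 3, both 4-OHT libraries had no exclusion read. All 4 had fewer than 20 reads in a library.

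Each exon was placed in reference transcripts. By exon and intron lengths, 74 of the 79 exons matched a GENCODE transcript with both introns, 4 with 1 intron, and 1 by its skipping junction. Of the 36 NPC exons that lie in coding sequence, 28 were lower and 8 were higher. Another 11 matched no coding transcript but a decay-annotated one, and of these 2 were lower and 9 were higher. Of the 7 matched only in noncoding transcripts 3 were lower and 4 higher. Where a transcript matched with both introns, transcripts with the exon beside another intron were not searched, so a coding one could be missed. In the 5′ untranslated region 7 were lower and 5 higher, where a shift of frame has no meaning for the protein itself. Exons with the start or stop codon counted 3 and 2. No test was made of these counts. The classes also started from different levels, with a median ethanol level of 0.8 for coding exons, 0.435 for exons of decay-annotated transcripts and 0.438 for exons of noncoding transcripts, and the part of this in the counts was not tested.

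**Figure D2:**
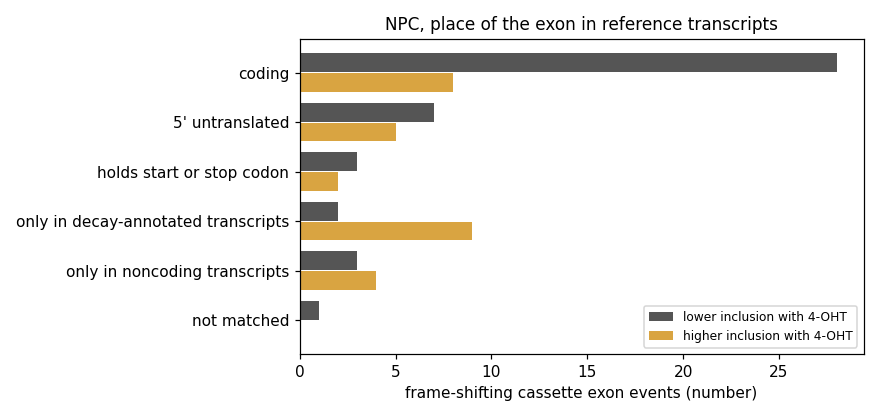
Number of frame-shifting cassette exon events of NPC (x axis) by the place of the exon in GENCODE M21 transcripts (y axis), with dark bars for lower and light bars for higher inclusion with 4-OHT. Coding exons divide 28 to 8 and exons of decay-annotated transcripts 2 to 9.

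The reading frame was then followed in the reference transcripts. An early stop was counted where it lay more than 50 bases before the last exon junction. In NPC the skipped form had one for 22 exons and the included form for 11. With the transcript of the longest coding sequence alone, the included form had one for 7, as Luc7l3, Dtnb, Ptprs and Slc2a9 no longer counted. For 25 exons in 24 genes the form with the early stop had the larger share after 4-OHT, through 16 losses and 9 gains. For 8 exons in 8 genes its share was smaller, through 6 gains and 2 losses. The 9 gains include both Tyw5 events and Calu. In Calu the early stop was called with both exons of 194 bases held, which the reads do not show. The median size of the change was 0.312 in the first set and 0.61 in the second. Lmtk3, Eif2s1, Hexdc, Hbxip, Strada and Prss36 of the second set had fewer than 20 reads in a library. So did Slc2a9, Ccdc163, Chchd2, Ranbp17, Crocc, Tbc1d24 and Eif2c2 of the first set. Over all NPC exons the median was 0.6 under that limit and 0.307 at or above it. The part of read depth in the difference was not tested. For the other 39 NPC events no early stop of this kind was assigned, or the frame could not be followed, or, for Atf2, both forms had one.
The early stops lay at very different places in the protein. In Ranbp17, a transport receptor of the importin beta family, skipping left 59 codons, of 1088 in the protein, and in Ap4e1 inclusion left 50 codons of 1122. In Syce2 the skipped form had 52 codons of 177, in Csad 274 of 493, in Mpdu1 146 of 247, and in Tbc1d24 430 of 561. In 2 poison exons the stop lay near the normal end, 54 bases before the last junction. Luc7l3 kept 469 codons of 477, and Dtnb, which encodes dystrobrevin beta, had 615 codons where the protein has 609, so that its stop shortens nothing although it is counted here. The 8 exons with a smaller share of the early-stop form were Lmtk3, Ptprs, Eif2s1, Hexdc, Hbxip, Strada, Parp11 and Prss36.

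Gene levels were then read from the authors' deposited table of the same cells. In NPC it listed 11 of the 66 genes, 16.7%, against 12.6% of all genes with any listed splicing event and 4.36% of all annotated gene names. It listed 9 of the genes lower, against 8.84% of genes with any event, and 2 higher, against 3.72%. Each of the 9 genes listed lower had an exon with lower inclusion, and both genes listed higher had an exon with higher inclusion. Of the 50 genes with a frame-keeping exon 3 were listed, also with level and exon in the same direction, 2 lower and 1 higher. The difference between the shares was not tested, and the level values are means over libraries with no spread given.
The deposited p-values of the table were adjusted for all annotated gene names, which gives an upper bound of a Benjamini-Hochberg value, and 7 of the 11 genes stayed under 0.05 by it. In the authors' deposited table Csad was at 13.4 RPKM with ethanol and 6.48 RPKM with 4-OHT, a log2 fold change of -1.05 (Cuffdiff, adjusted p at most 7.57e-09). Ccdc163, whose product has no function given here, was at 6.71 and 3.01 RPKM in the authors' deposited table (log2 fold change -1.16). Its exon had 5 reads in its shallowest library. By the authors' deposited table Cenpi was at 14.3 and 8.40 RPKM, Mpdu1 at 61.6 and 38.1, and Nnat at 253 and 162. Ranbp17 was at 1.65 and 1.02 RPKM in the authors' deposited table (log2 fold change -0.69), with 4 reads in its shallowest library for an exon change of -0.806. These 6 genes were all lower by 1.5-fold or more. Every gene read here from the deposited gene tables, higher or lower, changed by that much, so the listing may fix this.
Slc2a9, a urate transporter, was the seventh and had 1.41 and 3.48 RPKM in the authors' deposited table, a log2 fold change of 1.31 (Cuffdiff, adjusted p at most 2.81e-07). Its exon was at 0.0 and 0.258 with ethanol and 1.0 and 0.903 with 4-OHT, on 3 reads in the shallowest library. Of the 4 genes above 0.05, the authors' deposited table gave Syce2 14.0 and 7.52 RPKM (adjusted p at most 0.0985 from Cuffdiff) and Fam86 3.89 and 2.35 RPKM. For Crocc, the ciliary rootlet protein rootletin, the authors' deposited table gave 1.95 and 1.26 RPKM, and for Tyw5 8.10 and 13.1 RPKM.

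**Figure D3:**
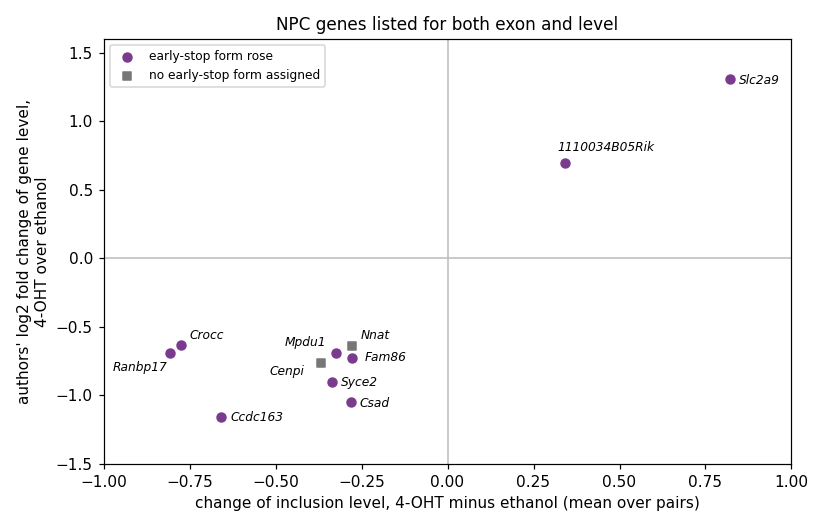
The 11 NPC genes that both tables list, with the mean change of inclusion of the exon (x axis, 4-OHT minus ethanol) and the authors' log2 fold change of the gene level (y axis); for Mpdu1 and 1110034B05Rik the event with more reads in its shallowest library is shown. Circles are genes whose early-stop form had the larger share with 4-OHT and squares genes without an assigned early stop; 9 genes lie in the lower left and 2 in the upper right quadrant.

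Levels were next set beside the direction of the early-stop form. Of the 24 genes whose early-stop form had the larger share with 4-OHT, the authors' deposited table listed 7 lower and 2 higher, against 8.84% lower and 3.72% higher among genes with any listed event. The 7 were Mpdu1, Csad, Syce2, Ccdc163, Ranbp17, Crocc and Fam86, all with a skipped coding exon. The 2 were Slc2a9 and Tyw5, with an included exon, and for Slc2a9 no early stop was assigned with the longest transcript alone. None of the 8 genes whose early-stop form had a smaller share was listed, in either direction, which with 8 genes says little beside the 12.6% listed among genes with any event. Cenpi and Nnat were listed lower without an early stop being assigned. No test was made of these counts, and a gene that is not listed has no value here.
Of 33 genes drawn up for nonsense-mediated decay and its known targets, the authors' deposited table for NPC listed 3, where it listed 4.36% of all gene names. That share is over 55418 annotated names, expressed or not, so it is not a like background for the 33. In the authors' deposited table Dcp2, the decapping enzyme, was at 14.47 and 8.99 RPKM, and Rbm8a, a core protein of the exon junction complex, at 16.7 and 11.01 RPKM. Gadd45a, a stress gene known as a target of the pathway, was at 2.79 and 4.73 RPKM by the same deposited table of the authors. None of the 33 had a splicing event of any kind listed in NPC.

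In MEF, 8 of the 9 frame-shifting exons were lower and 1 was higher, while 78.1% of all listed cassette exon events of MEF were lower. The median change was -0.489, against -0.366 for all listed cassette exons. The ranges of the arms did not overlap for 9 of 9, as for 96.9% of the listed events. Median levels of the 8 losses were 0.99 with ethanol and 0.403 with 4-OHT.
Tpm3, a tropomyosin of the actin cytoskeleton, was at 1.0 in both ethanol libraries and at 0.068 in both 4-OHT libraries for a 79-base coding exon. Its inclusion reads were 60 and 25 with ethanol and 43 and 21 with 4-OHT, but exclusion reads were 0 and 0 against 209 and 103. As in Tmbim6, the skipping reads were added to inclusion reads that changed much less. Mtfr1, of mitochondrial fission, showed the same with 9 and 9 inclusion reads against 13 and 7, and exclusion reads of 0 and 0 against 84 and 34. Ppia, cyclophilin A, went from 1.0 in both to 0.15 and 0.068. It had 0 exclusion reads among 140 in ethanol, which allows up to 2.14% of reads.
Rpl23, a protein of the large ribosomal subunit, went from 0.87 and 1.0 to 0.411 and 0.476, and in one pair inclusion reads were 954 with ethanol and 72 with 4-OHT. A listed 84-base event of Rpl23 has the same exclusion reads and was also lower. Rpl23 and Ppia have near-identical copies elsewhere in the genome, so that their reads are uncertain. Mettl17, needed for mitochondrial ribosome assembly, had 2 listed cassette events that share an edge. A retained intron event of the gene, with the same exclusion reads as the 251-base event, was also lower. It went from 0.864 and 1.0 to 0.407 and 0.534. The 71-base coding exon was at 0.938, 1.0 and 1.0 with ethanol and at 0.567, 0.635 and 0.659 with 4-OHT, a change of -0.359 ± 0.016 (SD, n = 3 pairs; exact permutation p = 0.1). Skipping it leaves 236 codons of 486. In NPC the same gene was listed for an alternative 5′ splice site instead, which went from 0.267 and 0.245 to 0.495 and 0.579.
The 1 gain was Tcf7l2, a transcription factor of Wnt signalling, from 0.132 and 0.0 to 1.0 in both, on 3 to 8 reads per library. None of the 8 genes was listed in the MEF gene table, which listed 1.69% of genes with any splicing event and 0.2% of all gene names. None of the 33 decay genes was listed for its level there either. Upf3b, a decay factor that bridges UPF proteins and the exon junction complex, was listed for a frame-keeping 39-base exon, at 0.529 and 0.247 with ethanol and 0.153 and 0.032 with 4-OHT.

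**Figure D4:**
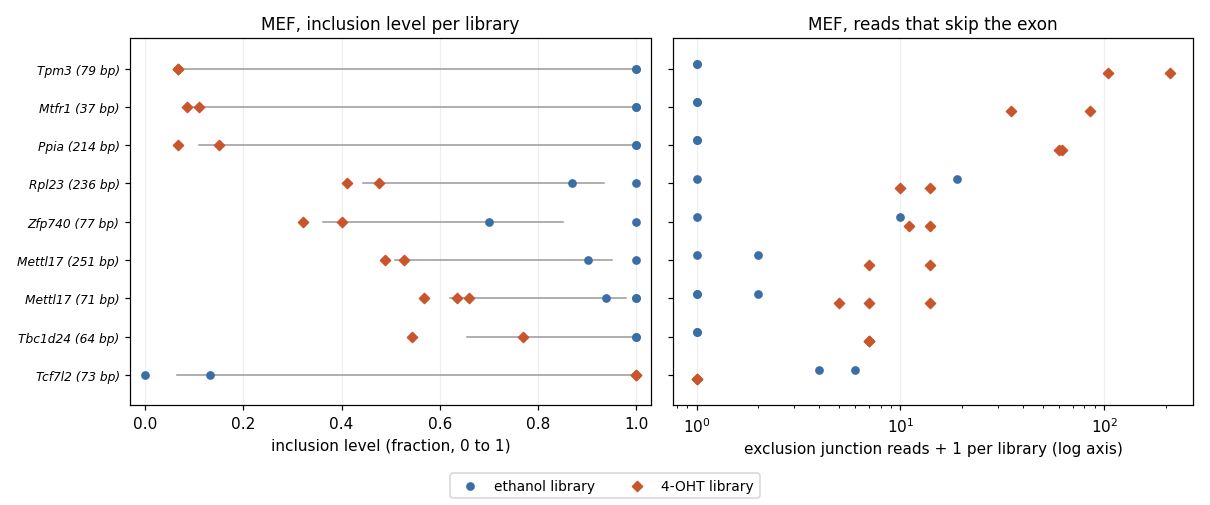
The 9 frame-shifting events of MEF (y axis, gene symbol and exon length). The left panel gives the inclusion level of each ethanol (circle) and 4-OHT (diamond) library, with a line between arm means, and the right panel the exclusion junction reads plus 1 per library on a log axis; Tpm3, Mtfr1 and Ppia go from 0 exclusion reads in both ethanol libraries to between 34 and 209 with 4-OHT.

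The tables list 2 exons in both cell types, Tbc1d24 and Zfp740, both with lower inclusion in each. Neither had 20 reads in every library, with 12 reads in the shallowest NPC library for Tbc1d24 and 17 in the shallowest MEF library for Zfp740, so that at that limit 0 shared exons remain. Tbc1d24 encodes a protein of vesicle trafficking, and its 64-base exon (mm9 chr17:24319731-24319794) is coding. In NPC it was at 1.0 in both ethanol libraries and at 0.456 and 0.709 with 4-OHT. In MEF it was at 1.0 in both and at 0.77 and 0.543. No exclusion read was seen with ethanol among 59 reads in NPC, which allows up to 5.08% of reads. None was seen among 92 reads in MEF, which allows up to 3.26% of reads. The changes of -0.418 ± 0.179 and -0.344 ± 0.161 (SD, n = 2 pairs each) differed by less than their spread.
Zfp740, a zinc finger protein, was listed for a 77-base exon of the 5′ untranslated region (mm9 chr15:102035660-102035736). Its levels in NPC were 0.478 and 0.554 with ethanol and 0.242 and 0.216 with 4-OHT. In MEF they were 0.701 and 1.0 with ethanol and 0.402 and 0.321 with 4-OHT. The levels were lower with 4-OHT in all 4 pairs. Whether cell types differed in their change was not tested, since each has 2 pairs. The other 70 NPC exons were not listed as cassette events in MEF, where a failure to pass the listing does not show that an exon did not change.

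Exons with few reads had the larger listed changes. The listing fixes this in part, since with few reads only a large change can reach an authors' p under 0.05. In NPC 26 of 72 exons had fewer than 20 reads in at least 1 library, and their median change without sign was 0.6, from 0.325 to 1.0. The 46 exons with at least 20 reads in every library had a median of 0.307, from 0.218 to 0.923. For frame-shifting exons the library with the fewest reads had a median of 30 reads, against 56 for frame-keeping exons. No exclusion read was found with ethanol for 10 of the 44 losses, where the limit that a count of 0 allows (3 reads) was between 0.272% of reads in Dazap2 and 20.0% in Brd1. These limits are shares of reads, and the share of skipping on the level scale could be higher. Likewise 7 of the 28 gains had no exclusion read with 4-OHT. The plot of change against reads shows NPC changes below 0.3 only at 20 reads or more.

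**Figure D5:**
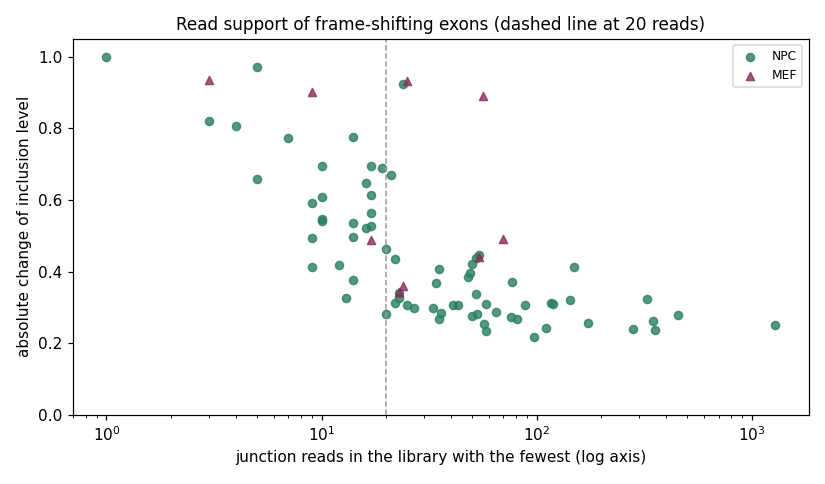
Size of the mean change of inclusion level without sign (y axis) against the number of reads counted in the library with the fewest (x axis, labelled junction reads, log scale), for 72 NPC events (circles) and 9 MEF events (triangles). The dashed line stands at 20 reads; left of it NPC changes run from 0.325 to 1.0 and right of it from 0.218 to 0.923.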

How the data were processed

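RNA-seq libraries (TruSeq, total RNA) from 12 samples were used through 4 tables. The authors deposited inclusion and exclusion read counts, inclusion levels as a fraction, their difference and p-values per event and pair, and RPKM means, log2 fold changes and p-values per gene. Per the submitters' processing notes, CASAVA 1.8, TopHat2 2.03, Bowtie2 2.0.0.6 and Cuffdiff 2.02 were used with mm9; the splicing caller is not given in the sources used here. Pair codes match no label. Both tables list changed features only, so direction and size are partly fixed by listing.

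Exon length is the end minus the 0-based start coordinate. Levels were averaged over listed pairs. Exons in 3 pairs had a two-sided exact permutation test, adjusted over all cassette events in 3 pairs; its code was tested on simulated data. Frames were followed in GENCODE M21 by matching exon and intron lengths. Values of same-coded NPC libraries deviated together over 23 events (correlations 0.365, 0.318 and 0.272), which listing by itself favours. The mean and SD of a change were taken over pairs. The permutation test shuffled libraries without regard to pairs, and only the sign-flip test kept them. Named were exons in both cell types, the 10 largest losses and 5 largest gains on 20 reads or more, genes in the gene table, extremes of reads, repair and RNA genes, genes with several events, and decay genes; others were chosen after their values were seen. Members and lists were chosen with earlier results of these data known. Python tools (pandas, scipy) were used.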

Additional observations from a re-analysis of the deposited data

How the results depend on the processing

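Direction never changed for any of the 81 event values under the alternatives run, which is fixed in part by listing. Asking for at least 20 reads in every listed library left 28 lower and 18 higher NPC exons and 46 without overlap, 6 lower and 0 higher MEF exons, and 0 exons shared by both cell types. Asking for 3 pairs left 8 lower and 3 higher in NPC, and 1 lower and 0 higher in MEF with a median of -0.359. Summing reads over libraries gave a MEF median of -0.438. Counting length with both end coordinates, which the reference lengths contradict, gave 19 lower and 7 higher in MEF. A change of at least 0.3 kept 1 shared exon. Without exons at 0 exclusion reads in an arm (chosen after seeing the data) MEF had 4 lower and 0 higher.

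Leaving out each pair in turn, medians ran from -0.28 to -0.255 in NPC and from -0.524 to -0.443 in MEF, and no count changed. Genes listed higher were 0 among those whose exon lost inclusion and 1 (chosen after seeing the data) among those with 20 reads or more. Early stops by inclusion were 7 in NPC with 1 transcript a gene (without Luc7l3, Dtnb, Ptprs and Slc2a9), and 3 in MEF with stops at any distance. As a replicate block, the exact sign-flip test over pairs gave p = 0.25 for each of the 12 exons in 3 pairs, the smallest it allows, so neither test could pass 0.05. Counted reads, as few as 1 in a library, limit the levels of 26 NPC and 3 MEF exons.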
